A study of Homo sapiens with 10 samples.

Results

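The proteasome is the protease complex that degrades proteins marked with ubiquitin. Its barrel-shaped core particle is built of rings of alpha and beta subunits, with the proteolytic sites on beta subunits, and it is capped by a regulatory particle whose base unfolds substrates with a ring of ATPases and whose lid removes ubiquitin. Immune subunits can replace the catalytic beta subunits, alternative activators can replace the regulatory particle, and dedicated chaperones assemble both particles. Oxidised proteins are among the substrates of the core particle, and transcription factors of the NFE2L family raise proteasome genes in many cells when proteasome function falls.

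The genes described here are the proteasome subunits, their assembly chaperones, their activators and their inhibitor. They were chosen by name alone, as the genes whose symbol is PSMA, PSMB, PSMC, PSMD, PSME, PSMF or PSMG with a number, together with POMP and ADRM1, and whose row on the array carries that symbol only. This gave 38 genes of 14232 with such a row. They comprised 6 alpha and 7 beta subunits of the core, 2 immune subunits, 7 base and 5 lid subunits, 6 assembly chaperones, and 5 activators or inhibitors. Of 50 genes of the family, 12 had no such row: PSMB9, PSMD14, PSMG2 and PSMG4 shared theirs with another gene, and PSMA6, PSMA8, PSMB11, PSMC1, PSMC5, PSMC6, PSMD7 and PSMD13 were not analysed here.

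Total RNA came from SH-SY5Y cells, a cloned subline of a human neuroblastoma. The 2 groups were cells treated with paraquat, a redox-cycling herbicide (5 arrays, numbered 8, 12, 14, 18 and 20 in the titles), and untreated cells (5 arrays, ctrl 7, 11, 13, 17 and 19). Neither dose nor duration is stated in the sources used here. Nothing in the labels ties an array to a culture of its own, and the p-values therefore cover only array-to-array spread, part or all of which may be technical. Values are the log2 expression values that the authors deposited, 1 per transcript cluster (the exon probes assigned to a locus), and levels are compared only within a gene.

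Array medians lay between 6.78 and 6.93. Of 10 markers of sympathetic neuroblasts 6 had a row, none of them among the dimmest 33.3% of rows. Of these 6, 5 fell and none rose, with PHOX2A averaging 8.89 after paraquat and 9.97 in controls. Of 9 leukocyte markers 6 had a row and 4 of these were among the dimmest rows. Of the 6, 2 rose, CD68 by 1.33 and CD14 by 0.64, and none fell. PTPRC, which defines leukocytes, averaged 2.72 after paraquat and 2.67 in controls. In limma's moderated model over all 22011 rows, 20.0% changed at an adjusted p under 0.05, 8.51% upward and 11.5% downward. Fewer cells of a kind and less RNA per cell cannot be told apart in such bulk samples.

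Most proteasome genes did not pass the test after paraquat. Of the 38 genes, 2 rose, ADRM1 by 0.44 and PSMD4 by 0.29 on the log2 scale, and 1 fell, PSME2 by 0.76. That is 7.89% of the genes, beside 20.0% of all rows. Both genes that rose encode ubiquitin receptors of the base, and the gene that fell encodes the beta subunit of the PA28 activator. Paraquat and control arrays were separate without overlap in these 3 genes and in no other of the 38 (7.89%), beside 16.2% of all rows. The median log2 change was -0.12 over the 38 genes and 0.00 over all rows, and the median absolute change was 0.21 and 0.18. For 36 of the 38 genes the 95% interval of the log2 change lay between -1 and 1, a 2-fold change either way, which held for 86.3% of all rows. The exceptions were PSMD10 and PSME2, whose intervals reached -1.03 and -1.27.

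**Figure D1:**
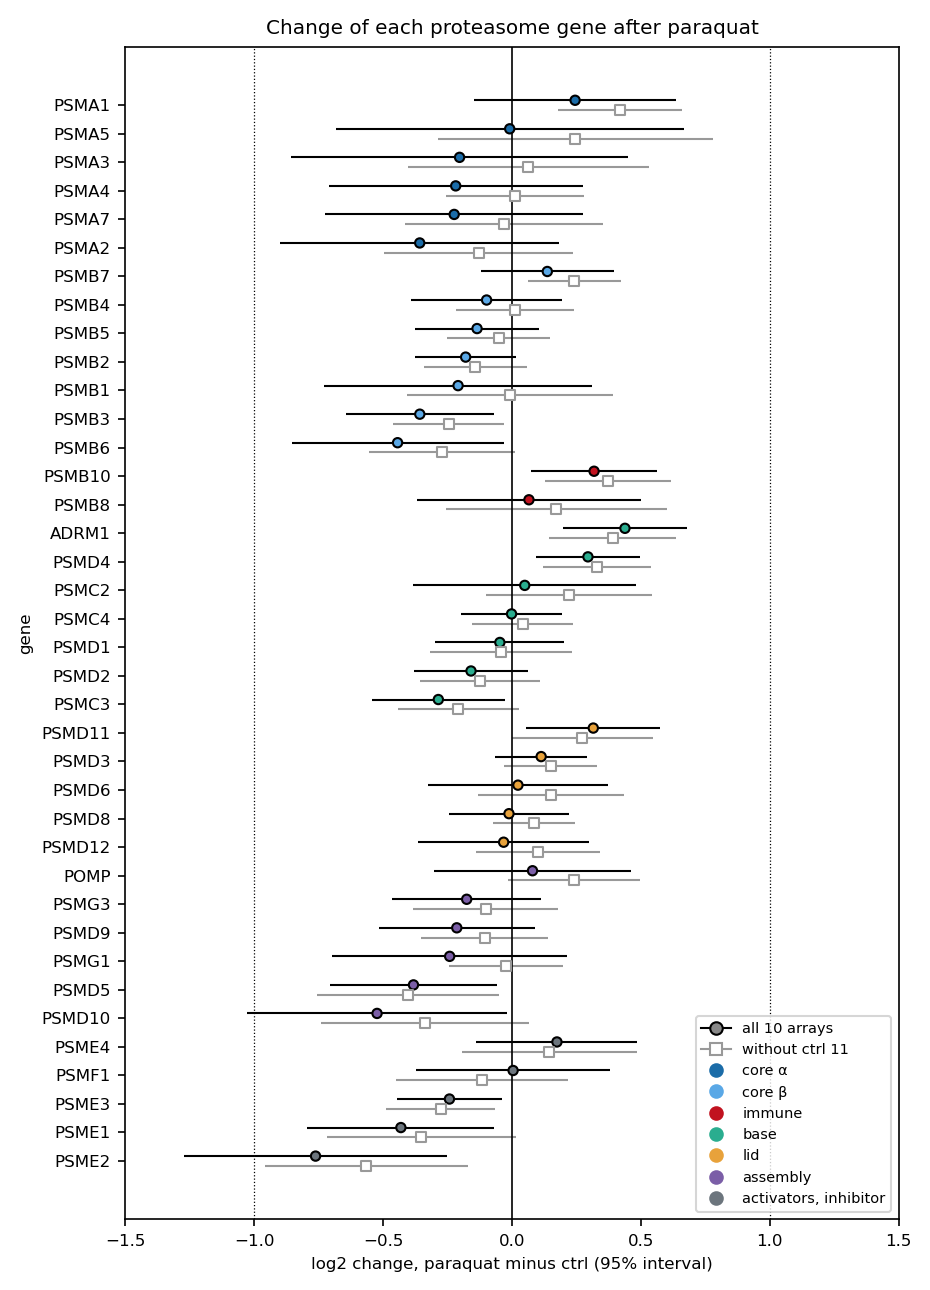
Log2 change of each proteasome gene (horizontal axis, paraquat minus ctrl) with its 95% interval, by class, with all 10 arrays (filled circles) and without ctrl 11 (open squares). ADRM1 (0.44), PSMD4 (0.29) and PSME2 (-0.76) passed the test with all arrays, and dotted lines mark 2-fold changes.

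One control array bears on nearly every value that follows. Ctrl 11 was the highest of the controls in 30 of the 38 genes (78.9%), against 32.3% of all rows, and stood above the mean of the other controls by a median of 0.53, against 0.01 over all rows. The excess differed by class, with medians of 1.14 for the alpha subunits, 0.55 for the beta subunits, 0.40 for the immune subunits, 0.67 for the assembly chaperones, 0.48 for the lid, 0.17 for the base and -0.15 for the activators and inhibitor. Paraquat 12 was the highest of its group in 24 of the 38 genes (63.2%, against 22.6% of all rows), by a median of 0.21 over the genes. Without ctrl 11, 5 of the 38 genes passed, beside 21.4% of all rows. Of these, 4 rose (ADRM1, PSMD4, PSMA1 and PSMB10), against 9.39% of all rows, and PSME2 fell, against 12.0% of all rows. The sign of the change turned in 8 of the 38 genes, beside 1867 of all 22011 rows. The median over the genes was 0.00. All 38 intervals lay between -1 and 1, beside 19047 of all rows.

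**Figure D2:**
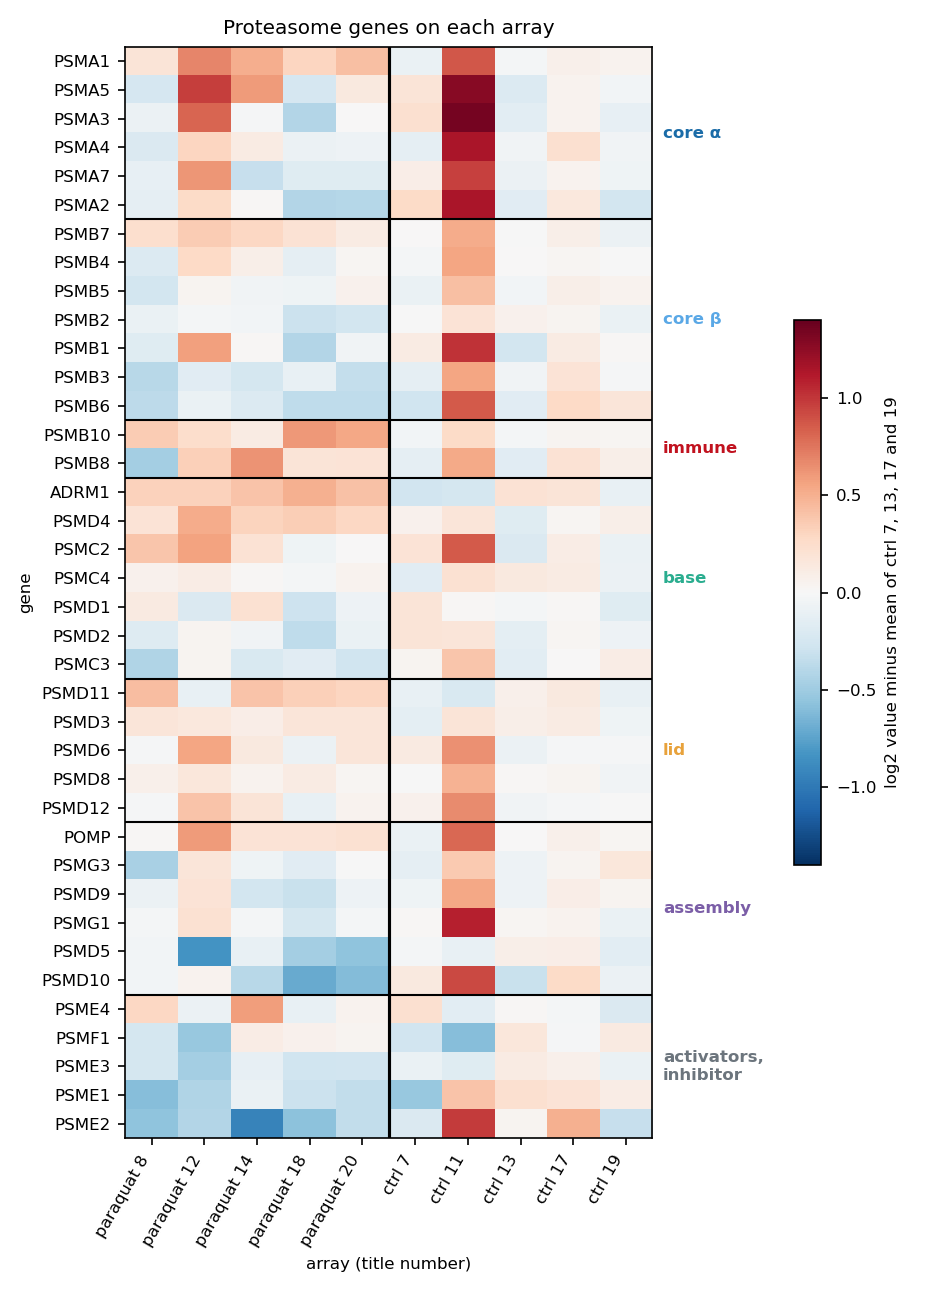
Each proteasome gene (rows, by class) on each array (columns, paraquat left of ctrl), as the log2 value minus the mean of ctrl 7, 13, 17 and 19. Ctrl 11 stands out in red among the alpha subunits, where its median excess was 1.14, and paraquat 12 is the reddest paraquat array there.

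The alpha subunits of the core form its outer rings and gate the entry to the chamber. None of the 6 passed the test, with log2 changes between -0.36 (PSMA2) and 0.24 (PSMA1) and a median of -0.21. PSMA1 had log2 values of 8.88, 9.39, 9.21, 9.00 and 9.12 on paraquat arrays 8, 12, 14, 18 and 20, against 8.61, 9.57, 8.68, 8.77 and 8.75 on ctrl arrays 7, 11, 13, 17 and 19. All paraquat arrays lay above 4 of the 5 controls, and ctrl 11 was the highest array of all. Its log2 change was 0.24 ± 0.18 (SE, limma adjusted p = 0.413), and without ctrl 11 it rose by 0.42 ± 0.11 (limma adjusted p = 0.0201). PSMA2 had 7.03, 7.42, 7.17, 6.75 and 6.76 on the paraquat arrays, in the same array order, against 7.43, 8.30, 7.00, 7.30 and 6.90 on the controls. The groups overlapped and ctrl 11 was again the highest array. The other log2 changes were -0.01 for PSMA5, -0.20 for PSMA3, -0.22 for PSMA4 and -0.22 for PSMA7. Without ctrl 11 the median of the alpha subunits was 0.04, and PSMA3, PSMA4 and PSMA5 had values above 0 (0.06, 0.01 and 0.25).

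Among the beta subunits of the core, PSMB5, PSMB6 and PSMB7 carry the chymotrypsin-like, caspase-like and trypsin-like sites. None of the 7 beta subunits passed, with log2 changes between -0.44 (PSMB6) and 0.14 (PSMB7) and a median of -0.18. PSMB6 had log2 values of 8.74, 9.00, 8.91, 8.74 and 8.74 on the paraquat arrays, against 8.82, 9.96, 8.94, 9.37 and 9.27 on the controls. The paraquat arrays were low, although ctrl 7 and ctrl 13 fell within their range (-0.44 ± 0.19, limma adjusted p = 0.131). PSMB7 had 11.32, 11.44, 11.37, 11.28 and 11.19 on the paraquat arrays, against 11.08, 11.60, 11.07, 11.16 and 11.00 on the controls. Here every paraquat array was above every control except ctrl 11 (0.14 ± 0.12, limma adjusted p = 0.496), and without ctrl 11 the change was 0.24 (limma adjusted p = 0.0596). PSMB5 had 9.01, 9.30, 9.21, 9.21 and 9.33 on the paraquat arrays, against 9.17, 9.68, 9.22, 9.34 and 9.32 on the controls, and the groups overlapped. The structural subunits gave -0.10 for PSMB4, -0.18 for PSMB2, -0.21 for PSMB1 and -0.36 for PSMB3, the last with a limma adjusted p of 0.0815. With array weights PSMB3 fell by 0.35 (limma adjusted p = 0.0265). Without ctrl 11 the median of the beta subunits was -0.05, and PSMB6 had -0.27.

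The immune subunits PSMB8 and PSMB10 replace PSMB5 and PSMB7 in cells exposed to interferon and alter the peptides that are cut. Neither passed the unweighted test of the deposited values with all arrays. PSMB10 had log2 values of 7.16, 7.04, 6.91, 7.40 and 7.34 on the paraquat arrays, against 6.76, 7.07, 6.78, 6.84 and 6.83 on the controls. All paraquat arrays were above 4 of the controls, and ctrl 11 lay between paraquat 12 and paraquat 8. The log2 change was 0.32 ± 0.11 (limma adjusted p = 0.0678), and without ctrl 11 PSMB10 rose by 0.37 (limma adjusted p = 0.036). PSMB10 also rose by 0.38 without paraquat 14 (limma adjusted p = 0.0292), and did not pass without any 1 of the other 8 arrays. With all arrays it rose by 0.42 with array weights (limma adjusted p = 0.00491) and by 0.38 after quantile normalization (limma adjusted p = 0.0467). Median centring, the dim filter, trended moderation and the block gave no call. PSMB8 had 5.59, 6.39, 6.69, 6.25 and 6.26 on the paraquat arrays, against 5.93, 6.59, 5.91, 6.26 and 6.15 on the controls. Paraquat 8 was the lowest and paraquat 14 the highest array of all 10, and the log2 change was 0.07 ± 0.20 (95% interval -0.37 to 0.50).

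The comparison of each immune subunit with the one it replaces was made on the difference of their log2 values within an array, for 2 pairs. PSMB8 minus PSMB5 averaged -2.98 ± 0.32 after paraquat and -3.18 ± 0.10 in controls (SD, n = 5 each). The shift was 0.20 (exact two-sided permutation p = 0.214, Benjamini-Hochberg adjusted p = 0.222 over the 2 pairs, where 0.00794 is the smallest p that 5 against 5 arrays can give). With each array left out in turn this shift ranged from 0.089 without paraquat 14 (unadjusted exact permutation p = 0.437, the highest of the 10) to 0.31 without paraquat 8 (p = 0.00794, the lowest). PSMB10 minus PSMB7 averaged -4.15 ± 0.28 after paraquat and -4.33 ± 0.13 in controls, a shift of 0.18 (exact two-sided permutation p = 0.222, adjusted p = 0.222). It ranged from 0.106 to 0.258 with each array left out. The differences show only whether the members of a pair moved unequally, since levels of different genes cannot be compared on these arrays. Among the leukocyte markers, the cells richest in immune subunits, CD68 and CD14 rose, and the summed linear signal of the 6 was 609 to 709 after paraquat and 264 to 336 in controls. CD68 alone made up 80.9% to 84.1% of this sum after paraquat and 63.3% to 73.7% in controls, and the other 5 summed to 103 to 124 after paraquat and 87.6 to 101 in controls. The share shows only how the sum is weighted. It does not rank the markers by level or measure a content of cells. Any link between the leukocyte markers and the value of PSMB10 was not tested.

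The base holds the ATPase ring and the receptors that bind ubiquitin chains. Of its 7 measured subunits 2 rose (28.6%, beside 8.51% of all rows) and none fell, at a median log2 change of 0.00. ADRM1, the ubiquitin receptor that also anchors the deubiquitinase UCHL5 (transcript cluster 3892607), had log2 values of 10.90, 10.90, 10.98, 11.07 and 10.99 on the paraquat arrays, against 10.31, 10.34, 10.78, 10.76 and 10.48 on the controls. The groups did not overlap, and the controls were the more spread of the groups, at 10.97 ± 0.07 after paraquat and 10.53 ± 0.22 in controls (SD, n = 5 each). ADRM1 rose by 0.44 ± 0.11, or 1.35-fold (limma adjusted p = 0.0159). It kept its call with each of the 10 arrays left out in turn (limma adjusted p between 0.0106 and 0.0404).

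PSMD4, another of the ubiquitin receptors of the base (transcript cluster 2358821), had 7.19, 7.52, 7.31, 7.34 and 7.29 on the paraquat arrays, against 7.06, 7.18, 6.83, 7.03 and 7.09 on the controls. The groups did not overlap, with paraquat 8 barely above ctrl 11. PSMD4 rose by 0.29 ± 0.09, or 1.23-fold (limma adjusted p = 0.0434). The call ended with any 1 of 8 arrays left out, namely paraquat 12, 14, 18 or 20 or ctrl 7, 13, 17 or 19 (limma adjusted p up to 0.102), and held without paraquat 8 or ctrl 11. A processed pseudogene, PIPSL, shares sequence with PSMD4, so probes of this row may bind both.

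The other base subunits did not pass. PSMC3, an ATPase of the ring, had the lowest log2 change, with values of 9.25, 9.72, 9.46, 9.51 and 9.40 on the paraquat arrays, against 9.72, 10.07, 9.53, 9.69 and 9.78 on the controls. The groups overlapped (-0.29 ± 0.12, limma adjusted p = 0.122). The ATPases PSMC2 and PSMC4 had log2 changes of 0.05 and 0.00, with intervals from -0.38 to 0.48 and from -0.20 to 0.20. The large scaffold subunits PSMD1 and PSMD2 had -0.05 and -0.16.

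The lid is built mainly of scaffold subunits around a deubiquitinase. None of its 5 measured subunits passed, at a median log2 change of 0.02. PSMD11, which bridges the lid and the core, had the largest log2 change, with values of 10.74, 10.19, 10.70, 10.64 and 10.61 on the paraquat arrays, against 10.19, 10.09, 10.38, 10.44 and 10.20 on the controls. Paraquat 12 lay among the controls and the other 4 paraquat arrays above all of them. The log2 change was 0.32 ± 0.12 (limma adjusted p = 0.0888), and without paraquat 12 PSMD11 rose by 0.41 (limma adjusted p = 0.0134). With all arrays PSMD11 rose by 0.36 after median centring (limma adjusted p = 0.0465). It also passed with adjacent title numbers as a block (limma adjusted p = 0.0405). Quantile normalization, the dim filter, array weights and trended moderation gave no call. PSMD12, with the lowest change of the lid, had 9.23, 9.65, 9.42, 9.14 and 9.30 on the paraquat arrays, against 9.31, 9.91, 9.20, 9.23 and 9.24 on the controls, which overlapped (-0.03 ± 0.15). PSMD3, PSMD6 and PSMD8 had 0.11, 0.02 and -0.01. Without ctrl 11 all 5 lid subunits had values above 0, at a median of 0.15, and none passed.

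Assembly chaperones bring the particles together and then leave them or are degraded. None of the 6 passed, at a median log2 change of -0.23. PSMD10, or gankyrin, a chaperone of the base, had 7.36, 7.46, 7.01, 6.70 and 6.80 on the paraquat arrays, against 7.54, 8.33, 7.09, 7.67 and 7.32 on the controls. Paraquat 14, 18 and 20 were below all controls and paraquat 8 and 12 were not (-0.52 ± 0.23, limma adjusted p = 0.146). POMP, which matures the core, had 9.50, 10.07, 9.67, 9.67 and 9.69 on the paraquat arrays, against 9.38, 10.29, 9.48, 9.55 and 9.50 on the controls. Ctrl 11 was the highest array and the groups overlapped (0.08 ± 0.17). The base chaperones PSMD5 and PSMD9 had -0.38 (limma adjusted p = 0.0972) and -0.21, and the core chaperones PSMG1 and PSMG3 had -0.24 and -0.18. Without ctrl 11 the median of the 6 was -0.10, PSMD10 had -0.34 and PSMG1 had -0.02. PSMD5 fell by 0.47 without paraquat 8 (limma adjusted p = 0.0409).

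Activators open the gate of the core without binding ubiquitin. PSME1 and PSME2 encode the alpha and beta subunits of PA28, which interferon raises in many cells and which aids the making of peptides for MHC class I. PSME2 (transcript cluster 3557811) had log2 values of 7.78, 7.93, 7.40, 7.76 and 7.99 on the paraquat arrays, against 8.13, 9.32, 8.37, 8.84 and 8.01 on the controls. The groups did not overlap, but paraquat 20 and ctrl 19 lay almost level. PSME2 fell by 0.76 ± 0.23, or 1.70-fold (limma adjusted p = 0.0396), to 7.77 ± 0.23 after paraquat, against 8.54 ± 0.54 in controls (SD, n = 5 each). Without ctrl 11 it fell by 0.57 (limma adjusted p = 0.0456). The call ended without any 1 of 7 other arrays, namely paraquat 8, 12, 14, 18 or 20 or ctrl 13 or 17 (limma adjusted p up to 0.096), and held without ctrl 7 or ctrl 19.

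PSME1 had 8.88, 9.05, 9.38, 9.18 and 9.13 on the paraquat arrays, against 8.95, 9.87, 9.71, 9.67 and 9.58 on the controls. Ctrl 7 lay among the paraquat arrays and the other controls above all of them. The log2 change was -0.43 ± 0.16 (limma adjusted p = 0.0957), and without ctrl 7 PSME1 fell by 0.58 (limma adjusted p = 0.00652). PSME3, the nuclear PA28 gamma subunit, had a change of -0.24 ± 0.09 (limma adjusted p = 0.0956). PSME4, the large nuclear activator PA200, had 9.45, 9.09, 9.75, 9.06 and 9.21 on the paraquat arrays, against 9.39, 9.02, 9.18, 9.13 and 8.96 on the controls. Its groups overlapped (0.17 ± 0.14), and PSMF1, the inhibitor PI31, had 0.00 with an interval from -0.37 to 0.38. The median of these 5 genes was -0.24, and -0.28 without ctrl 11.

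**Figure D3:**
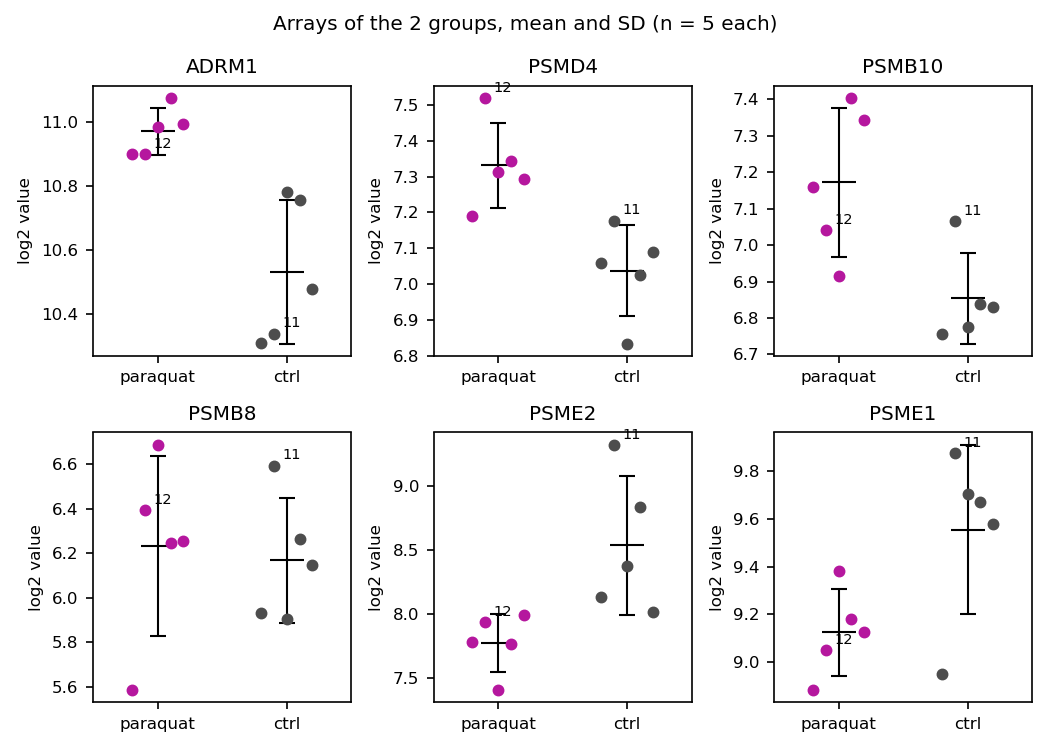
Log2 values of 6 proteasome genes on the paraquat (left) and ctrl (right) arrays, with the mean and SD (n = 5 each) and arrays 12 and 11 labelled; each panel has its own vertical axis. ADRM1, PSMD4 and PSME2 separate the groups, whereas ctrl 11 in PSMB10 and ctrl 7 in PSME1 lie among the paraquat arrays, and the groups overlap in PSMB8.

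Paraquat 12 and ctrl 11 set the upper end of the alpha subunits in their groups. As the mean deviation of the members of a class from each gene's mean over the 10 arrays, the alpha subunits lay between -0.33 and 0.45 on paraquat arrays and between -0.27 and 0.96 on control arrays. Without ctrl 11 and paraquat 12 the highest values were -0.01 after paraquat and -0.06 in controls. The base lay between -0.08 and 0.13 on paraquat arrays and between -0.12 and 0.16 on control arrays. The immune pair lay between -0.24 and 0.22 after paraquat and between -0.27 and 0.22 in controls. The activators and inhibitor lay between -0.28 and 0.02 after paraquat and between -0.07 and 0.25 in controls.

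**Figure D4:**
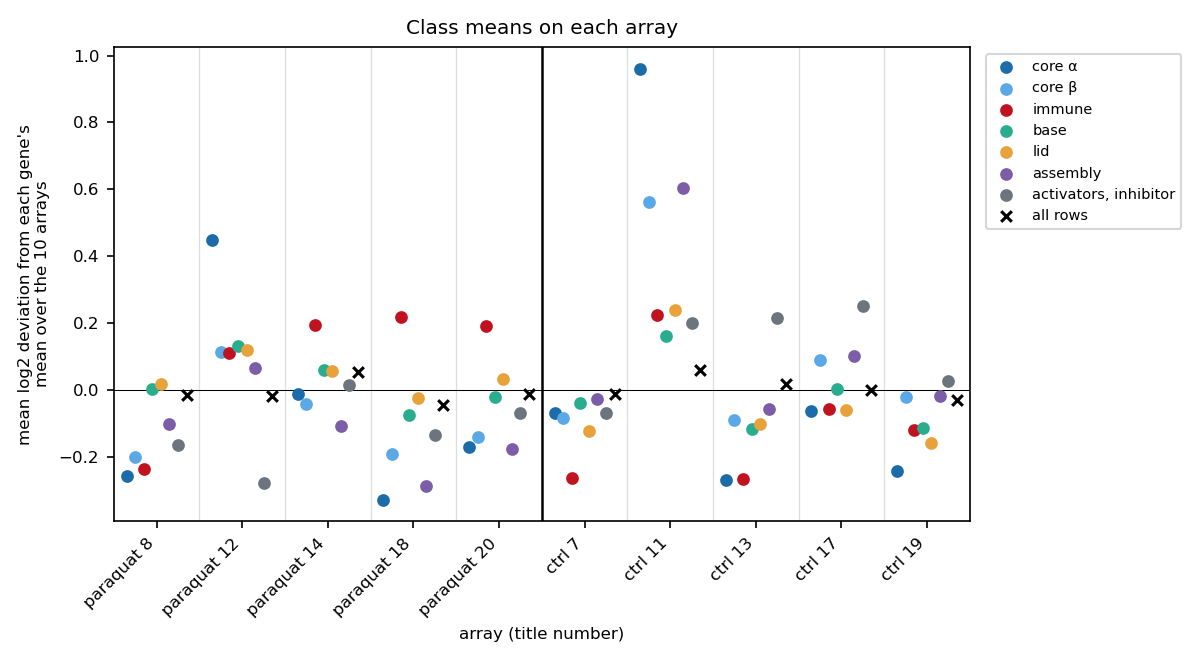
Mean log2 deviation of each class of proteasome genes (vertical axis) on each array (horizontal axis, paraquat left of ctrl), with all rows of the table as crosses. The alpha subunits reached 0.96 on ctrl 11 and 0.45 on paraquat 12, while all rows stayed between -0.04 and 0.06.

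Antioxidant response elements, which NFE2L factors bind as partners of small MAF proteins, have been described upstream of several proteasome genes. The RefSeq promoter table (GRCh38.p14) held 32 of the 38 genes, and the 250 bases before the start were searched on both strands. The core letters TGACNNNGC were found in 10 of 32 (31.2%), against 11.0% of 27305 genes in the promoter table. That background was not limited to genes with a row on the array, and it serves for each motif here. The letters GAAA repeated after 2 free bases, a spacing bound by interferon regulatory factors, were found in 4 (12.5%, against 3.07%), namely PSMA4, PSMB4, PSMB10 and PSME2, and CCAAT in 14 (43.8%, against 33.0%). A match is a description of letters and not a bound site. The matches to TGACNNNGC are shown in capitals with 10 bases either side, along the strand that carries them, because they occur in ADRM1, which rose, and PSME2, which fell, as well as in genes that did not pass.
ADRM1 (base, log2 change 0.44): cgctcccctaTGACACAGCaacaataggg
PSME2 (activator, -0.76): ccctggactgTGACCCAGCcagcaccgcc
PSME1 (activator, -0.43): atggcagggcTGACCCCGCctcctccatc
PSME4 (activator, 0.17): gctctgctggTGACGCTGCagccgccggg
PSMB3 (core beta, -0.36): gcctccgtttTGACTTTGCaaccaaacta
PSMD3 (lid, 0.11): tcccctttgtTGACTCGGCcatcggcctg
PSMD12 (lid, -0.03): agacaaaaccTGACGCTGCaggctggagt
PSMD5 (assembly, -0.38): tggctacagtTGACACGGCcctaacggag
PSMG1 (assembly, -0.24): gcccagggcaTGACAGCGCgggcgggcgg
PSMD9, first match (assembly, -0.21): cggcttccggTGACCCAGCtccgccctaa
PSMD9, second match: gcgcctgtggTGACCCGGCaggagtagcg

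The 2 promoters of genes that passed and had an entry are given whole, for the 250 bases before the start, with matches to TGACNNNGC and to the paired GAAA in capitals and CCAAT left in lower case. That of ADRM1 (chr20:62302646-62302895, plus strand) held 1 match to TGACNNNGC, whose first base lay 137 bases before the start, and 1 to CCAAT. That of PSME2 (chr14:24146611-24146860, minus strand) held a TGACNNNGC match 175 bases before the start and a match to the paired GAAA 28 bases before it.
ADRM1 promoter: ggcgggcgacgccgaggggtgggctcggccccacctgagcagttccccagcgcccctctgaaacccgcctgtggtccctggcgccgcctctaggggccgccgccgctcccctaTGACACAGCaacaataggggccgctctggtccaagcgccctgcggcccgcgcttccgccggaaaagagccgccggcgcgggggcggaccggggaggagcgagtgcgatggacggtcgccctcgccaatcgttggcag
PSME2 promoter: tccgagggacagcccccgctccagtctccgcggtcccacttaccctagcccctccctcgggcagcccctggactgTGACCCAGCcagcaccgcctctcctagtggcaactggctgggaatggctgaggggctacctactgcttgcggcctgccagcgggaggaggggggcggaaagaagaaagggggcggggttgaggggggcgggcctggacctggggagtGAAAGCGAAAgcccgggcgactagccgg

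Genes around the proteasome were counted in lists chosen by function. Of 8 measured regulators of proteasome and stress transcription, 5 rose (62.5%, beside 8.51% of all rows) and none fell, at a median of 0.67 beside 0.00 over all rows. IRF1, which drives immune subunits in interferon responses, rose by 1.39, MAFF, a small MAF partner, by 0.95 and BACH1, which competes for the same elements, by 0.80. NFE2L1, the factor best known for restoring proteasome genes, had a change of 0.11 (limma adjusted p = 0.408). Of 13 proteins that associate with the proteasome 2 rose (15.4%, beside 8.51% of all rows) and none fell, at a median of 0.02. They were ZFAND2A (1.12), an arsenite-inducible zinc finger protein, and ZFAND5 (0.58), which stimulates the proteasome. UCHL5, the partner of ADRM1, had -0.36 (limma adjusted p = 0.377), and SEM1, a small lid subunit outside the name rule, had 0.02. Without ctrl 11, 4 of the 13 rose, with TXNL1 (0.51) and AKIRIN2 (0.49), a factor for nuclear import of proteasomes, added.

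Of 9 shuttle factors and segregase subunits, which carry or extract ubiquitylated proteins, 1 rose (11.1%, beside 8.51% of all rows) and none fell, at a median of -0.11. It was NUB1 (0.56), which delivers NEDD8 conjugates to the proteasome, and without ctrl 11 UBQLN2 fell by 0.43. Of 3 measured genes of ubiquitin and its activation none rose and 1 fell, beside 11.5% of all rows, at a median of -0.38. It was the E1 enzyme UBA1 (-0.38, limma adjusted p = 0.0343). That call ended without any 1 of paraquat 8, 12, 18 or 20 or ctrl 7, 13, 17 or 19. Of 7 peptide loading genes 1 rose (14.3%, beside 8.51% of all rows) and none fell, at a median of 0.25: TAP1, a subunit of the peptide transporter, by 0.74 (limma adjusted p = 0.00112). In the COP9 signalosome, a complex related to the lid, 1 of 9 genes fell (11.1%, beside 11.5% of all rows) and none rose, COPS7A by 0.39, at a median of -0.14.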

How the data were processed

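Expression was measured on 10 Affymetrix GeneChip Exon 1.0 ST arrays after depletion of ribosomal RNA, per the labels' protocols. The log2 values were made by the authors with RMA, per the submitters' processing notes. Not given in the sources used here: version, software, summarisation level, filters and build. RMA pulls dim signals together and shrinks their changes. Probes were named from the platform annotation, where 14432 rows had 1 symbol and 2408 several, and 14404 of the 1-symbol rows matched RefSeq by gene identifier. No proteasome gene had more than 1 such row. Paraquat was compared with control in limma 3.58.1 under R 4.3.3, with the group as only term, no filter, two-sided tests and Benjamini-Hochberg adjustment over 22011 rows. The model had 8 residual and 3.06 prior degrees of freedom. It was run on simulated data with independent noise and no shift shared within an array. That run cannot show how calls behave under a shift such as that of ctrl 11. The median SE of a log2 change was 0.13, and the number of arrays limits the precision. Title numbers were not taken to pair the arrays, since the labels do not say so. Deviations of neighbouring numbers correlated between 0.0912 (paraquat 14 and ctrl 13) and 0.461 (paraquat 12 and ctrl 11). These values do not settle whether the arrays are paired, and calls with neighbouring numbers as a block are given below. Alternatives were each array left out, ctrl 11 and paraquat 12 left out, other scalings, a dim filter, array weights, trended moderation and a block. Gene lists got counts and medians with no test. Named are all proteasome genes, per-array values being given for passing genes, for catalytic subunits with their immune counterparts and for the largest rise and fall of each class, plus up to 3 passing genes of each list. PSME1 per array, UCHL5, SEM1, NFE2L1, UBQLN2, TXNL1 and AKIRIN2 were added after their values were seen. The planned pair of PSMB9 and PSMB6 was not run, since PSMB9 shares its row. The members and lists were chosen with earlier results of these data known. The motifs and the 2-fold bound were chosen during the work.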

Additional observations from a re-analysis of the deposited data

Results flagged for a closer look

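Within groups of 5 arrays, a highest or lowest array was set apart when its gap to the nearest array exceeded 0.71 of the group's range (Dixon's 95% critical value). Of 76 groups (38 genes, each in paraquat and control arrays), 15 were set apart. The rule sets apart about 1 in 20 groups of independent normal values, but these groups share the same arrays and are not independent. The share set apart over all rows was not counted. In 13 of the 15, ctrl 11 was high. The gap shares of ctrl 11 among the core subunits were 0.832 for PSMA1, 0.749 for PSMA3, 0.724 for PSMA4, 0.751 for PSMA5, 0.831 for PSMA7, 0.908 for PSMB4 and 0.735 for PSMB7. Among the other genes they were 0.741 for PSMB10, 0.845 for PSMD12, 0.837 for PSMD8, 0.811 for POMP, 0.721 for PSMD9 and 0.878 for PSMG1. Paraquat 12 was set apart on the high side for PSMA7 (gap share 0.774, log2 value 10.38 with the next array at 9.64) and on the low side for PSMD11 (0.764, log2 value 10.19 with the next array at 10.61). What sets these arrays apart was not tested.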

How the results depend on the processing

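ADRM1 kept its direction and its call under all 17 alternatives run. PSMD4 and PSME2 kept their direction under all of them, and lost their call without ctrl 11 and paraquat 12 together (limma adjusted p = 0.0512 and 0.0537) and without single arrays as given above. With 1 array left out, the count of proteasome genes was 1 to 4 raised and 0 to 2 lowered. Without ctrl 11 and paraquat 12 together it was 4 raised (ADRM1, PSMA1, PSMB10 and PSMD11) and 0 lowered. Array weights gave 5 lowered (PSMB3, PSMD5, PSME1, PSME2 and PSME3), and a block of adjacent title numbers gave 4 lowered (PSMB3, PSMD10, PSME1 and PSME2). The labels do not say that the title numbers pair the arrays. Deviations of adjacent arrays correlated between 0.0912 and 0.461, with 3 of 5 paraquat arrays closest to their own neighbour. Under the block the lists had 2 lowered among proteasome-associated genes, 2 among shuttle factors, 2 among ubiquitin genes and 2 in the COP9 signalosome. Array weights gave 4 raised and 2 lowered proteasome-associated genes, 1 lowered shuttle factor and 2 lowered COP9 genes. Median centring and quantile normalization each gave 0 lowered ubiquitin genes and 2 raised peptide loading genes. Without the dimmest rows 1 proteasome-associated gene was lowered, and without ctrl 11 and paraquat 12 2 shuttle factors and 2 peptide loading genes were raised. Leaving out 1 array gave 2 to 4 raised and 0 to 1 lowered proteasome-associated genes, 1 to 2 raised and 0 to 1 lowered shuttle factors and 0 to 1 lowered ubiquitin genes. The lid median ranged from -0.031 to 0.15, and the shift of PSMB8 minus PSMB5 from 0.089 to 0.31. The cause of these moves was not tested.

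Signs turned in no proteasome gene that passed. With 1 array left out, log2 changes ranged from -0.39 to 0.064 for PSMA3, -0.31 to 0.011 for PSMA4, -0.19 to 0.25 for PSMA5, -0.16 to 0.012 for PSMB4, -0.048 to 0.23 for PSMB8, -0.043 to 0.22 for PSMC2, -0.053 to 0.042 for PSMC4, -0.11 to 0.016 for PSMD1, -0.11 to 0.10 for PSMD12, -0.077 to 0.15 for PSMD6, -0.048 to 0.085 for PSMD8, -0.0089 to 0.24 for POMP and -0.12 to 0.11 for PSMF1. Median centring gave 0.039 for PSMA5, 0.047 for PSMC4, 0.0011 for PSMD1, 0.016 for PSMD12 and 0.036 for PSMD8. Quantile normalization gave 0.041 for PSMA5, 0.069 for PSMC4, 0.014 for PSMD12 and 0.036 for PSMD8. Array weights gave 0.081 for PSMA5, 0.032 for PSMD12, 0.027 for PSMD8 and -0.037 for PSMF1. Without ctrl 11 and paraquat 12 the values were 0.066 for PSMA5, 0.026 for PSMC4, 0.025 for PSMD12, 0.066 for PSMD8 and -0.012 for PSMF1. Trended robust moderation changed no call of a proteasome gene. No proteasome gene had a further row of its own to stand in for the one used.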

Other observations

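Rows that carry a proteasome symbol together with another gene were left out of the counts. The row of PSMB9 and PSMB8-AS1 had a log2 change of -0.32 (limma adjusted p = 0.0719), beside TAP1, the neighbour of PSMB9, which rose. The row of PSMD14, the deubiquitinase of the lid, and MXRA7 had 0.21 (limma adjusted p = 0.62). The row of PIPSL, PIP5K1A and PSMD4, among the dimmest of the table, averaged 3.70 after paraquat and 3.24 in controls and rose by 0.47 (limma adjusted p = 0.0294). The row of C7orf25 and PSMA2 had -0.37, the rows of PSMG2 and CEP76 had 0.03 and 0.12, and that of SLC22A23 and PSMG4 had 0.03, none of which passed.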
